A study of Mus musculus with 23 samples.

Results

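The 10 hippocampal RNA libraries described here were the 5 with the most and the 5 with the least transthyretin (Ttr) RNA among 15 offspring libraries, out of 23 libraries in the series. They were selected on the normalized count of Ttr alone, whatever the paternal group, and the middle 5 offspring libraries were left out of the contrast. All animals were wild-type C57BL/6 male mice. The offspring, collected at 5.5 months, came from 7 libraries of the exercised-father group and 8 of the sedentary-father group. The fathers, collected at 7 months, comprised 4 exercised mice, which ran on a treadmill 40 minutes daily during 6 weeks, and 4 sedentary mice kept without exercise. The study asked how exercise changed hippocampal RNA in the fathers and in their litters, and the split by Ttr cuts across that question.

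The choroid plexus is a vascular fold that hangs in the brain ventricles, next to the hippocampus. Its epithelium rests on a stroma with leaky capillaries, secretes cerebrospinal fluid by moving ions and water, and seals the blood from that fluid with tight junctions. Transthyretin, which carries thyroid hormone, is among its most abundant secreted products, and the tissue can be carried along when a hippocampus is dissected. In RNA from bulk tissue, more choroid plexus cells and more RNA per cell cannot be told apart.

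Ttr (ENSMUSG00000061808.3, GRCm38 chr18:20665280-20674321, plus strand) was at 1136, 1514, 1808, 3785 and 32839 normalized counts in the 5 low libraries. In the same order these were sedentary-father offspring 1 and 4, exercised-father offspring 3 and 7, and sedentary-father offspring 7, by replicate number. The fifth of them stood far above the other 4 of its set. In the 5 high libraries Ttr was at 133721, 156406, 172394, 175278 and 187843, in exercised-father offspring 2, sedentary-father offspring 5 and 8, and exercised-father offspring 5 and 6. The mean was 165128 ± 20822 (SD, n = 5) in the high set and 8216 ± 13802 (SD, n = 5) in the low set, a difference of 5.64 on the scale of log2(normalized count + 1) that the selection itself fixed. Ttr alone took between 0.00250% and 0.431% of the reads of an offspring library.

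The edges of both sets lay close to libraries that were left out. The lowest library inside the high set had 133721 counts and the highest one outside it had 133251, while the highest library inside the low set had 32839 and the lowest one outside it had 35390. By value, 9 offspring libraries were at 128793 counts or more, 4 at 3785 or fewer, and a pair lay between. The high set held 3 libraries from the offspring of exercised fathers and 2 from the offspring of sedentary fathers, and the low set held 2 and 3.

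A pair of other choroid plexus markers, which the selection did not rank by, was read in the same libraries. Their values describe the contrast and are no independent check of its label. Folr1 (ENSMUSG00000001827.12, GRCm38 chr7:101858331-101870788, minus strand) encodes the folate receptor that takes folate across the choroid plexus. It was at 38.2, 35.3, 42.4, 37.4 and 101.6 counts in the low set, in the order of rising Ttr, and at 358.6, 871.1, 646.8, 695.01 and 781.7 in the high set. The sets did not overlap, and the difference was 3.76 (log2). Exercised-father offspring 2, in the high set at 358.6, was below middle libraries at 369.5, 414.8, 446.7 and 462.8. Kl (ENSMUSG00000058488.7, GRCm38 chr5:150952607-150993817, plus strand) encodes klotho, a co-receptor for FGF23 made in choroid plexus and also in hippocampal neurons. It was at 1202, 1245, 1095, 1107 and 1708 counts in the low set and at 4921, 7763, 6010.0, 7429 and 7882 in the high set. Kl did not overlap either, with a difference of 2.42, and unlike Folr1 it stayed above 1000 counts in every low library.

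**Figure D1:**
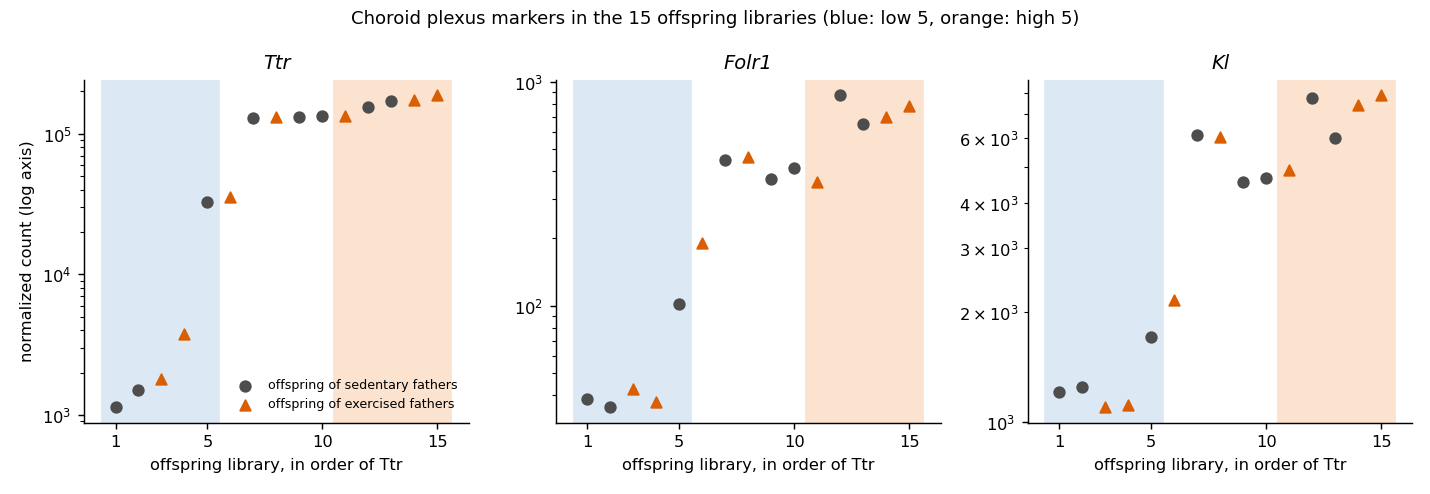
Normalized counts (log axis) of Ttr, Folr1 and Kl in each of the 15 offspring libraries, placed in the order of their Ttr count, with blue shading over the 5 low and orange shading over the 5 high libraries. Circles are offspring of sedentary fathers and triangles offspring of exercised fathers. The libraries step up between the 4 lowest, a pair at 32839 and 35390 Ttr counts and the other 9, and both kinds of symbol occur in each shaded set.

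Total reads were 33667580 to 50746570 in the offspring and 40124885 to 55172616 in the fathers. The 5 high libraries had 44404785 to 50746570 reads and the 5 low ones 37696777 to 47627243. A second series of sample barcodes in the labels held 1 library of each set. The titles of exercised-father offspring 1 and 2, 3 and 4, and 5 and 6 share a stem within each pair, whose meaning the labels do not give, so these may not be independent. Their Ttr counts were 132559 and 133721, 1808 and 35390, and 175278 and 187843. The labels do not say that each library came from a separate animal, so p-values here describe the spread among these libraries, part of which may be technical.

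A total of 17862 genes entered the contrast of high against low. The sets did not overlap for 682 genes that were higher in the high set (3.82% of those entered) and for 121 that were lower (0.677%). A gene was said to follow Ttr upward when the sets did not overlap and the mean difference was at least 1 on the log2 scale. That held for 237 genes (1.33%), Ttr included, of which the other 236 comprised 217 protein-coding genes. The same rule downward held for 2 genes (0.0112%). A gene was said not to follow Ttr when the sets overlapped and the difference was under 0.2 in either direction, which held for 14099 genes (78.9%). Since Ttr chose the libraries, these counts describe the contrast and carry no test. A gene under 10 counts in every low library could enter only through high and middle libraries. Likewise, a gene under 10 counts in every high library could enter only through low and middle ones. Of the 237, 45 were under 10 counts in all 5 low libraries.

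The middle 5 libraries took no part in choosing those genes. Their mean lay between the means of both sets for 227 of the 236 genes and above the high mean for 9. That order came with the libraries' own Ttr, which was between the sets by construction.

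Secreted proteins and carriers of the choroid plexus were nearly all in the group that followed Ttr. Of 9 listed genes besides Ttr, 8 followed it upward and all 9 had sets that did not overlap, with a median difference of 2.64 against -0.01 over all genes entered. For this and the following lists, the shares over all genes entered were 1.33% following Ttr upward and 3.82% higher with sets apart. Wfdc2, a small secreted protein with protease-inhibitor domains, averaged 167.5 ± 37.1 (SD, n = 5) counts in the high set and 10.2 ± 14.6 in the low set, a difference of 4.76. F5, coagulation factor V, averaged 2091 ± 507 in the high set and 113.4 ± 71.6 in the low set. Enpp2 (autotaxin, which makes lysophosphatidic acid) was the most abundant listed secreted gene after Ttr. It was at 11011, 9764, 9053, 8204 and 14748 counts in the low set and at 47267, 74026, 57813, 73794 and 75246 in the high set. The low libraries kept at least 8204 counts of Enpp2, a gene that oligodendrocytes also express. Igf2, a growth factor made by choroid plexus and meninges, was 1.76 higher (with gene models overlapping it on its strand), and Igfbp2, an IGF-binding protein, was 2.18 higher.

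Ion and water transport split into genes that followed Ttr closely and genes that hardly moved. Among 13 listed genes, 8 followed Ttr upward and the sets did not overlap for 10, with a median of 1.31. Aqp1 (ENSMUSG00000004655.5, GRCm38 chr6:55336432-55348555, plus strand), the apical water channel, was at 11.9, 18.1, 21.7, 31.7 and 97.8 counts in the low set and at 546.1, 1002, 691.1, 822.2 and 875.5 in the high set. Replicate 7 of the offspring of sedentary fathers was again the highest of the low set, and the sets did not overlap. Slc4a5, a sodium bicarbonate cotransporter, differed by 4.95, Kcne2, an accessory subunit of potassium channels, by 4.87, and Kcnj13, an inward-rectifying potassium channel, by 4.60. The cation channel Trpv4 was 3.13 higher and Clic6, a chloride channel family member, 2.65 higher. Slc4a2, a chloride-bicarbonate exchanger, and the carbonic anhydrase Car12 were 1.31 and 1.16 higher. In contrast, Slc4a10, a sodium bicarbonate transporter of choroid plexus and neurons, averaged 10798 ± 623 in the high set and 9842 ± 1340 in the low set (SD, n = 5 in each), sets that overlapped. Atp1b1, a subunit of the sodium pump found in all neurons, averaged 80882 and 80252, a difference of 0.01. Slc12a2, the sodium-potassium-chloride cotransporter, was 0.43 higher with overlapping sets.

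Carriers of vitamins, metals, nutrients and organic ions held the gene with the largest difference after Ttr. Slc16a8 (ENSMUSG00000032988.3, GRCm38 chr15:79251014-79254761, minus strand), a lactate transporter of choroid plexus and retinal pigment epithelium, was at 1.19, 2.86, 1.09, 3.40 and 16.3 counts in the low set. In the high set it was at 127.2, 160.3, 135.4, 162.4 and 184.7, a difference of 5.18. Steap1, a metalloreductase, was 4.68 higher and Abca4, a lipid transporter best known from the retina, 3.36 higher. Slc39a4, a zinc importer, was 2.28 higher, Slc13a4, a sulfate transporter, 1.97 and Slc31a1, a copper importer, 1.15. In all, 8 of the 13 listed genes followed Ttr upward, with a median of 1.97. The members with overlapping sets were Slc22a8, Slc23a2 and Slc26a11, at 0.32, 0.23 and 0.09. Slc23a2, which carries vitamin C into neurons as well as choroid plexus, averaged 7219 counts in the high set and 6199 in the low set.

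Receptors and membrane enzymes, with 9 listed genes, had a median of 2.42, and 7 followed Ttr upward. Mfrp (ENSMUSG00000034739.17, GRCm38 chr9:44101729-44109187, plus strand), a frizzled-related membrane protein, was at 35.8, 48.7, 30.4, 51.0 and 172.6 counts in the low set and at 1470, 2432, 1720, 1914 and 2201 in the high set. Its reads cannot be fully separated from those of C1qtnf5, which overlaps it on the same strand. Tmem72, a transmembrane protein, was 4.65 higher and Cdh3, P-cadherin, 4.34 higher. The prolactin receptor Prlr was 2.70 higher, the angiotensin-converting enzyme Ace 2.37 and the leptin receptor Lepr 1.76. Htr2c, the serotonin receptor of choroid plexus and of some neurons, had sets that did not overlap but a difference of 0.97. Lrp2 (megalin) was at 80.8 to 123.4 counts in the high set and at 63.5 to 106.9 in the low set, a difference of 0.17.

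Genes of the tight junctions and keratins of the epithelium had sets that did not overlap for all 9 listed members, and 8 of these followed Ttr upward, with a median of 2.11. Cldn2, a claudin that forms paracellular cation pores, averaged 781.3 ± 129.8 in the high set and 43.9 ± 27.8 in the low set. Krt18 and Krt8, the keratin pair of simple epithelia, were 2.55 and 2.11 higher, and Cldn1 was 1.53 higher. Ocln, which endothelium also uses, was 0.46 higher.

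Transcription factors moved least among the choroid plexus lists, with a median of 0.86 over 7 genes, 3 of which followed Ttr upward. The list includes Foxj1, which is also in the list for ependyma and motile cilia, and Rfx3. Its median is therefore not one of choroid plexus factors alone. Otx2, a homeodomain factor needed to form and keep the choroid plexus, was at 99.2, 99.3, 104.3, 112.2 and 168.8 counts in the low set and at 493.5, 669.97, 683.3, 628.5 and 712.3 in the high set. Lmx1a, a factor of the roof plate from which the tissue grows, was 2.41 higher and Msx1, another homeodomain factor, 1.64 higher. Rfx3, a regulator of cilia genes, averaged 4583 and 4598, a difference of 0.02, and Rfx2 had a difference of 0.26 with overlapping sets.

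Across the choroid plexus lists together, 42 of 60 genes besides Ttr followed it upward, 51 had sets that did not overlap, and all 60 differences were above 0, with a median of 2.22. Over all genes entered, 1.33% followed Ttr upward and 3.82% were higher with sets apart. The lists were drawn up with earlier results of these data known, and their direction is no independent evidence. By the largest differences among genes averaging at least 50 counts over the offspring, 2 genes outside the lists were among the top 15. Col17a1, a collagen of epithelial anchoring, was 4.31 higher and Oca2, a transport protein known from pigment cells, 4.06 higher. The 10 genes whose counts followed Ttr most closely by Pearson correlation over the 15 libraries were Kcnj13, Steap1, Wfdc2, Aqp1, Kcne2, Slc4a5, Slc16a8, Slc24a5, Sostdc1 and 1500015O10Rik. Slc24a5, an ion exchanger known from pigment cells, was outside the lists and was 2.56 higher. Sostdc1, a secreted antagonist of BMP and Wnt signals, was 3.06 higher.

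**Figure D2:**
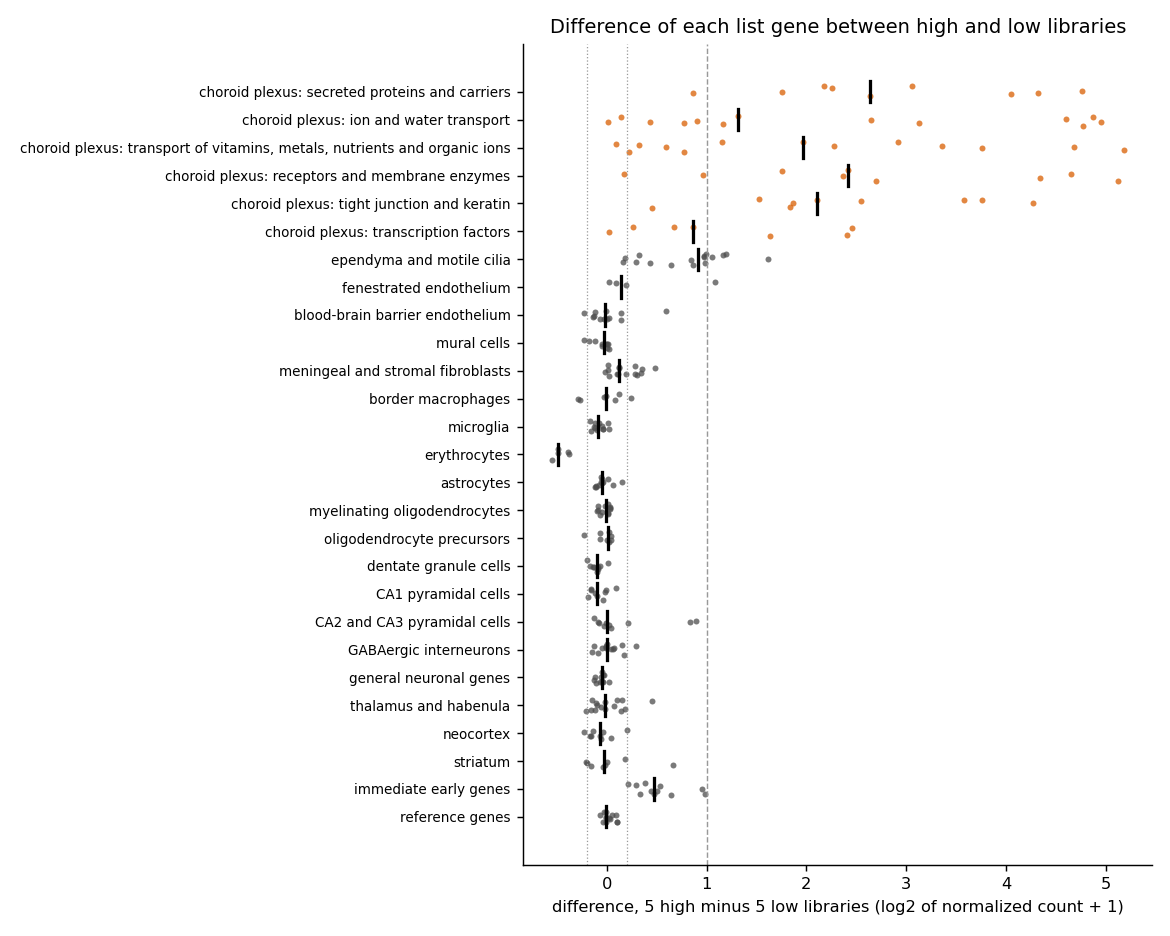
Difference between the mean of the 5 high and of the 5 low libraries, on the scale of log2(normalized count + 1), for each gene of 27 lists, with 1 point per gene and a black bar at each list's median. Orange points are choroid plexus lists with Ttr left out, the dashed line marks 1 and the dotted lines mark 0.2 on either side of 0. The choroid plexus medians run from 0.86 to 2.64, while most hippocampal lists lie between the dotted lines.

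RefSeq promoters (GRCm38.p6, from 250 bases before to 50 bases after each start) were read for the letters TAATCC, the core that OTX proteins bind, on both strands. Of the 237 upward genes 169 had an entry, and 18 of these held the letters (10.7%), against 832 of 12036 other genes entered in the contrast (6.91%) and 8.14% of 27025 gene symbols with an entry. The letters CAGGTG (39.1% against 21.6%) and TAATTA (6.51% against 3.47%) were also more frequent in upward genes, so the difference was not particular to TAATCC. Among upward genes averaging at least 50 counts, those with a match and the largest differences were Mfrp at chr9:44101520-44101819 on the plus strand, Abca4 at chr3:122044210-122044509 on the plus strand and Otx2 itself at chr14:48665060-48665359 on the minus strand. They are printed 5′ to 3′ to show where the letters lie, with the match in capitals, which reads GGATTA in all of them because it is on the opposite strand.
Mfrp: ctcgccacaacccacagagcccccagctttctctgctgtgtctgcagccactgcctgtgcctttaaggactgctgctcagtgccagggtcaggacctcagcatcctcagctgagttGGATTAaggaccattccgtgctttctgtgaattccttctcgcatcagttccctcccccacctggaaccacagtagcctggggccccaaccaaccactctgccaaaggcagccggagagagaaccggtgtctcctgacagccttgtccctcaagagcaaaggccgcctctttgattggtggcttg
Abca4: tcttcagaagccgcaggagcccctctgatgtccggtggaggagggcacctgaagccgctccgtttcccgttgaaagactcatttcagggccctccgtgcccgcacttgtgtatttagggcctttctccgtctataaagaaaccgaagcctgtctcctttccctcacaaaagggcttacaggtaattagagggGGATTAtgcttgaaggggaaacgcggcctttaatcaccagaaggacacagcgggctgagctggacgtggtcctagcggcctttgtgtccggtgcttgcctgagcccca
Otx2: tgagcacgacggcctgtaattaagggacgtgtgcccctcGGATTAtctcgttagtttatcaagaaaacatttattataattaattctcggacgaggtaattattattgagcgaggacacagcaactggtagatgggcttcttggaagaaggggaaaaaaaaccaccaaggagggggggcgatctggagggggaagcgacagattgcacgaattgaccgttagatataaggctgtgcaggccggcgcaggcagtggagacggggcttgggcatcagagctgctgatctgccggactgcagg
In these windows the match begins 134 bases before the start in Mfrp, 58 in Abca4 and 211 in Otx2. A match describes letters, and no binding was measured.

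A straight line of each gene's normalized count on Ttr over the 15 offspring libraries gave a slope per 1000 Ttr counts and a level at 0 Ttr, both as descriptions. Of 134 upward genes averaging at least 50 counts, the level at 0 Ttr was under 10% of the high mean for 21 and at least 50% for 2, which were Col18a1 and Dnah6, and lay from 10 to 50% for the rest. Aqp1 had 4.68 ± 0.35 (SE) counts per 1000 Ttr counts and a level at 0 Ttr of -1.73 ± 41.7. For Folr1 the values were 3.72 ± 0.38 and 11.3 ± 45.4. Kl kept 955.1 ± 305.02 counts at 0 Ttr, which was 14.0% of its high mean, and Igf2 kept 1852 ± 421, or 28.5%. For Foxj1 the level at 0 Ttr was 531.3 ± 53.3, or 53.3% of the high mean, and for Slc4a10 it was 9894 ± 477, or 91.6%.

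**Figure D3:**
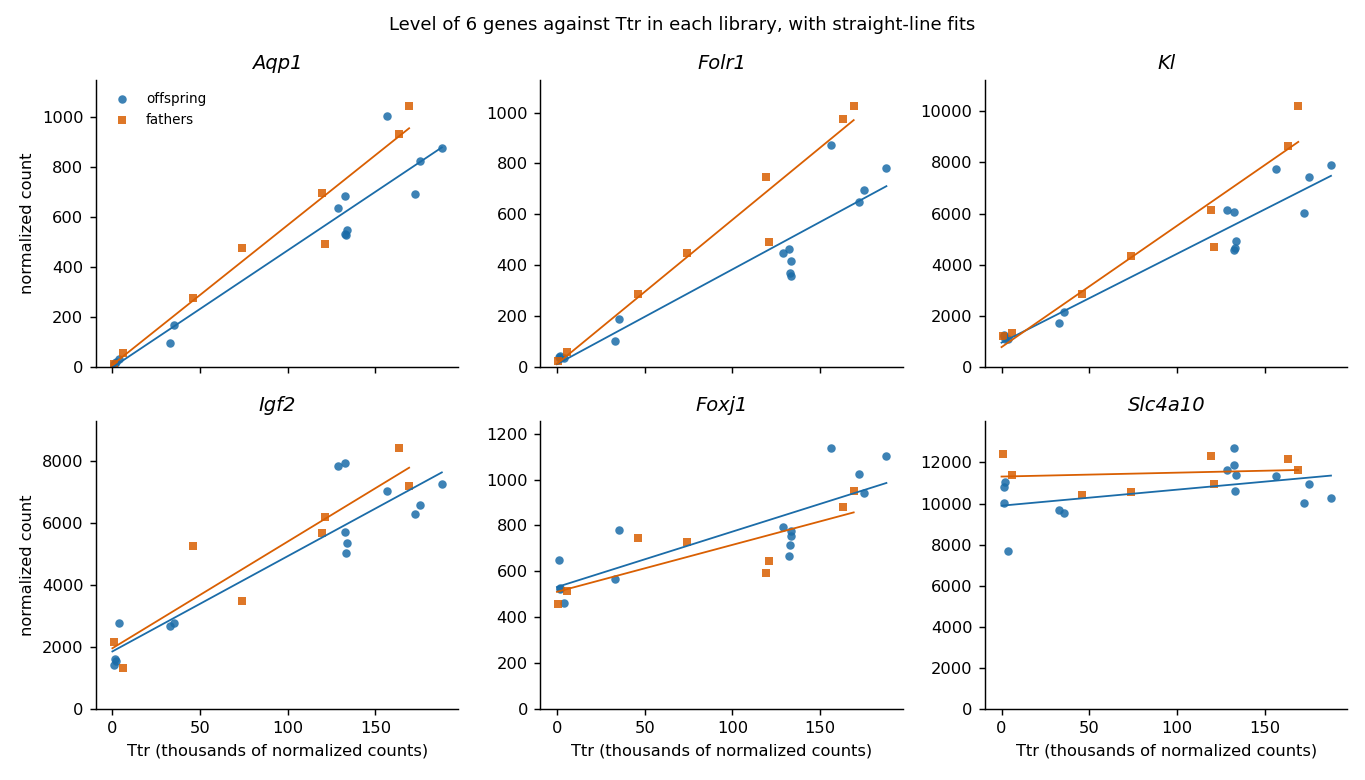
Normalized count of 6 genes against Ttr (axis in units of 1000 normalized counts), in the 15 offspring libraries (blue circles) and the 8 fathers (orange squares), with a straight line fitted to each generation. Aqp1 and Folr1 start near 0, Kl, Igf2 and Foxj1 rise from a level above 0, and Slc4a10 is nearly level.

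Genes of ependyma and motile cilia, the neighbouring cell layer of the ventricle, were higher but by less. All 16 listed genes had differences above 0, 9 had sets that did not overlap and 4 followed Ttr upward, with a median of 0.92. The shares over all genes entered were 3.82% higher with sets apart and 1.33% following upward. The 4 that followed were Mia, Spag16, Cfap126 and Dynlrb2, at 1.62, 1.19, 1.16 and 1.05. Foxj1, the factor that switches on motile cilia genes, averaged 997 ± 146 in the high set and 546.5 ± 68.8 in the low set. Choroid plexus epithelium also carries cilia, and a share of these RNAs from ependyma was not tested. The summed level of the ependyma list ran from 2764 to 4138 in the high libraries and from 1709 to 2345 in the low ones.

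Lists for vessel, stromal, macrophage and blood cells, of choroid plexus or of other brain tissue, had medians closer to 0 than the choroid plexus lists. Of 4 genes of fenestrated endothelium that entered, none had sets apart and the median was 0.14, with Esm1 the highest at 1.08. Esm1 was at 10.75 to 19.9 counts in the high set and 3.84 to 11.3 in the low set. Over all genes entered, sets were apart for 3.82% higher and 0.677% lower, so a count of 0 in a list this small is near those shares. Plvap, the diaphragm protein of leaky capillaries, was at 283.7 to 338.96 counts in the high set and 230.9 to 320.6 in the low set. Of 15 genes of meningeal and stromal fibroblasts, 14 had differences above 0 with a median of 0.13, and none had sets apart. Mural cells (-0.03), border macrophages (-0.01) and blood-brain barrier endothelium (-0.02) had medians near 0. Within the endothelial list the exception was Slco1c1, a thyroid hormone carrier also made by choroid plexus, which averaged 3058 in the high set and 2032 in the low set with sets apart. The 5 erythrocyte genes had a median of -0.49, with overlapping sets.

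Most listed genes for cells of the hippocampus itself did not follow Ttr. Over 9 lists for astrocytes, oligodendrocytes and their precursors, microglia, dentate granule cells, CA1, CA2 and CA3 pyramidal cells, interneurons and general neuronal genes, 94 of 99 genes were under 0.2 with overlapping sets, and the median was -0.05. Over all genes entered that share was 78.9% and the median -0.01. Prox1, the factor that marks dentate granule cells, was at 5516 to 6212 counts in the high set and 4590 to 8081 in the low set. Wfs1, a CA1 marker, averaged 6083 and 6785, and Gfap of astrocytes 12104 and 13094. The myelin gene Mbp averaged 102590 and 104340. Coch was the exception with sets apart, averaging 311.1 in the high set and 176.8 in the low set. Map3k15, from the same list as Coch, was at 150.2 to 185.6 in the high set and 65.2 to 152.9 in the low set. Its sets overlapped through sedentary-father offspring 1, at 152.9. Of the lists for tissue next to the hippocampus, neocortex (-0.07), striatum (-0.03) and thalamus with habenula (-0.02) had medians near 0. Ppp1r1b (DARPP-32), listed for striatum, was apart from its list at 0.67, with 2334 to 2891 counts in the high set and 1568 to 1798 in the low set. The 13 reference genes had a median of 0.00, and Gapdh averaged 70640 in the high set and 69142 in the low set.

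Immediate early genes, which neurons switch on with activity, had differences above 0 for 11 of 11 members, with a median of 0.48. The sets overlapped for every member. Over all genes entered, sets were apart for 3.82% higher and 0.677% lower, so overlap throughout a list this small is near those shares. Fos was at 489.9 to 1280 counts in the high set and 204.3 to 956.02 in the low set. Npas4 was at 318.6 to 635.1 and 170.9 to 801.8. The middle library with the lowest Ttr, replicate 4 of the offspring of exercised fathers, had 1498 counts of Fos, above every library of the high set.

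Genes lower in the high set changed little. The only genes past the downward rule were Gm43830 and Gm42973, unnamed gene models that averaged 5.81 and 11.4 counts in the high set and 16.2 and 25.6 in the low set. That count of 2 rose to 17 without exercised-father offspring 2, 13 without sedentary-father offspring 1, 10 without sedentary-father offspring 8 and 8 without sedentary-father offspring 4. It was 4 or 5 without sedentary-father offspring 7 or exercised-father offspring 3 or 5. Among genes averaging at least 50 counts, the most negative differences with sets apart were -0.53 for Gm9796 and -0.50 for Lgr6, a Wnt-pathway receptor. Lgr6 was at 170.9, 226.2, 170.6, 138.2 and 149.6 counts in the low set and at 126.2, 122.5, 111.1, 119.6 and 116.3 in the high set. The other 8 of the 10 most negative were Gm13302, Gm17494, Gpc2, Gm15506, Gm17491, Gm37874, Mterf1a and Gsdmd, between -0.47 and -0.30.

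Not all of the most variable genes separated the sets. Of the 20 genes with the largest SD over the 10 libraries, among those averaging at least 50 counts, 14 were higher with sets apart. Over all genes entered that share was 3.82%, and a large SD over these libraries favours genes that separate the sets. The 6 with overlapping sets were Gh, Gm21541, Gdf1, Gm14440, AC157515.1 and AC174776.1. Gh, growth hormone, was at 0 to 58.9 counts in the low set, 0.95 to 279.3 in the high set and 1769 in replicate 4 of the offspring of exercised fathers, a middle library. Gdf1, a growth factor gene that shares its strand and position with Cers1, was at 0 in a low and in a high library and at 552.9 in another low one, and its reads cannot be fully separated from those of Cers1.

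Ttr itself was compared by paternal group, and no difference passed the test. It averaged 95770 ± 80130 (SD, n = 7) in the offspring of exercised fathers and 94870 ± 70910 (SD, n = 8) in the offspring of sedentary fathers (exact permutation test on log2 values, 2-sided, p = 0.885). The difference of mean log2 values was 0.08. In the fathers it averaged 102100 ± 53960 in the exercised group and 72780 ± 81990 in the sedentary group (SD, n = 4 in each), a log2 difference of 2.39 (exact permutation test, 2-sided, p = 0.343, where the smallest possible is 0.0286). In the authors' deposited table for the offspring, 11 genes had an adjusted p under 0.05, of which 0 followed Ttr upward and 11 did not follow it, beside 1.33% and 78.9% over all genes entered. In the authors' deposited table for the fathers, 14 genes did, of which 9 entered the offspring contrast. Of these 9, 0 followed Ttr upward and 4 did not follow it. Counts this small are not read against those shares.

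The fathers gave the same measure in libraries that the selection had not read. Ttr was at 770, 6009, 163326 and 121017 counts in sedentary fathers 1 to 4 and at 169193, 119331, 46044 and 73908 in exercised fathers 1 to 4. Low and high libraries thus occurred among the fathers too, and the 2 lowest were both sedentary. For each of 17492 genes, limma fitted the log2 level on log2 Ttr with the exercise group as a covariate, over 8 fathers. At an adjusted p under 0.05 it called 221 genes with a positive slope (1.26%) and 6 with a negative slope (0.0343%). Without sedentary father 3 the positive calls numbered 52, without sedentary father 4 they fell to 60.2% of the 221, and without sedentary fathers 1 and 2 together they numbered 49. DESeq2 called 433 positive and 80 negative, array weights gave 349 and 13, and leaving out exercised father 2 gave 275 and 41.

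Of 226 genes that followed Ttr upward in the offspring and could be tested in the fathers, 117 had a called positive slope (51.8%), 223 had a slope above 0 and 0 were called negative by limma. The median slope of the 226 was 0.27, beside -0.00063 over all genes tested, of which 1.26% were called positive. Of these genes 42 were called without sedentary father 3 and 45 without sedentary fathers 1 and 2 together. Of 13934 genes that did not follow Ttr in the offspring, 14 were called positive and 6 negative. Read from the other side, 117 of the 221 positive genes had followed Ttr upward in the offspring (52.9%), beside 1.33% of all genes entered there. For 181 of the 221 the offspring sets were apart and higher, beside 3.82% of all genes entered.

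Both markers besides Ttr had called positive slopes. Folr1 was at 24.6, 58.6, 975.3 and 491.2 counts in sedentary fathers 1 to 4 and at 1026, 748.8, 286.5 and 448.9 in exercised fathers 1 to 4. Its slope was 0.68 ± 0.04 (SE) log2 units per log2 unit of Ttr (limma, adjusted p = 7.35e-05). Kl was at 1209, 1341, 8635 and 4698 in the sedentary and at 10213, 6139, 2862 and 4325 in the exercised fathers, with a slope of 0.38 ± 0.06 (adjusted p = 0.0132). For Slc16a8 the slope was 1.01 ± 0.05 (adjusted p = 8.94e-06).

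The smallest p-values among positive slopes belonged to genes already met in the offspring. Kcne2 had a slope of 0.83 ± 0.03 (limma, adjusted p = 7.34e-07), Aqp1 of 0.79 ± 0.03 and Slc4a5 of 0.84 ± 0.03. Mfrp had 0.85 ± 0.05, Tmem72 0.79 ± 0.05 and Steap1 0.70 ± 0.04. Otx2 rose by 0.44 ± 0.03 per log2 unit of Ttr and Sfrp5, a secreted frizzled-related protein, by 0.52 ± 0.03. Of the 60 choroid plexus genes 39 were called positive and 0 negative, with a median slope of 0.34. Over all genes tested, 1.26% were called positive and 0.0343% negative. The positive count per list was 7 of 9 for secreted proteins, 8 of 13 for ions and water, 6 of 13 for other carriers, 7 of 9 for receptors, 8 of 9 for junctions and 3 of 7 for transcription factors. Igf2 (0.29 ± 0.07, adjusted p = 0.0843), Car12 (0.18 ± 0.04, adjusted p = 0.0885) and Col17a1 (0.46 ± 0.10, adjusted p = 0.0649) missed the threshold in limma.

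**Figure D4:**
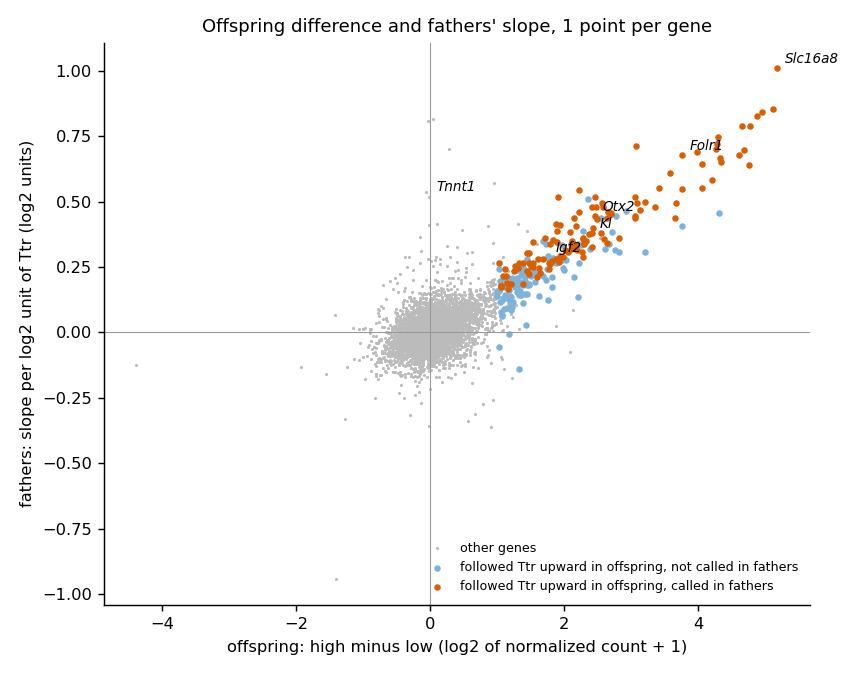
For each gene tested in both generations, the difference between high and low offspring libraries (x, log2 of normalized count + 1) against the slope on Ttr in the 8 fathers (y, log2 units per log2 unit of Ttr). Orange and light blue points followed Ttr upward in the offspring and were or were not called in the fathers, and grey points are all other genes. Orange points rise from the centre to Slc16a8 at the upper right, and Tnnt1 lies on the vertical axis with a slope of 0.52.

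The slope per 1000 Ttr counts in the fathers, divided by that in the offspring, was between 0.594 and 1.86 for the 134 upward genes averaging at least 50 counts, with a median of 1.16. For Aqp1 it was 5.59 ± 0.52 (SE) counts in the fathers beside 4.68 ± 0.35 in the offspring. For Folr1 it was 5.66 ± 0.53 beside 3.72 ± 0.38, and for Enpp2 487.8 ± 57.6 beside 348.1 ± 26.1. The tables of both generations were normalized separately, so a common factor between them was not removed.

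Of the 16 ependymal genes, 14 had slopes above 0 in the fathers and 1 was called. The called gene was Cfap126 (0.17 ± 0.03, limma, adjusted p = 0.0122), a protein of motile cilia. None of the 99 genes of the hippocampal cell lists was called by limma in either direction, near the shares of 1.26% and 0.0343% over all genes tested. Of the 11 immediate early genes, 7 had slopes above 0, with a median of 0.02, and 0 were called, also near those shares. At an unadjusted p under 0.05, 2595 of all 17492 genes passed. Of 15 thalamus and habenula genes 13 had slopes above 0 and 2 were called, Tnnt1 (0.52 ± 0.09, adjusted p = 0.0280) and Rora. Tnnt1, a troponin of muscle and thalamus, was at 374.3 and 806.0 counts in sedentary fathers 3 and 4 and at 32.2 to 85.6 in the other 6 fathers. In the offspring Tnnt1 was at 41.2 to 60.9 in the low set and 34.8 to 65.1 in the high set. Summed over the thalamus and habenula list, sedentary fathers 3 and 4, both high in Ttr, had 20461 and 29064 counts, and the other 6 fathers had 10556 to 15063. That sum follows the abundant genes of the list. Among its scarcer genes, sedentary father 2, low in Ttr, was highest for Pou4f1, Tac2 and Chrnb3. It had 157.9, 240.1 and 143.3 counts, and the other fathers had 1.04 to 22.2, 60.15 to 79.5 and 12.5 to 79.98. Gbx2 and Chrna6 were highest in sedentary father 4. In the offspring the sum over the whole list was 9498 to 13600 in the high set and 8934 to 14890 in the low set. The part of thalamic or habenular tissue in the fathers' slopes was not tested.

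The 6 genes with negative slopes in the fathers were Ppfia2, a scaffold protein of the presynapse, Nol4, Vstm2a, Gda, which encodes guanine deaminase, the sodium channel gene Scn3a and Mctp1. All 6 did not follow Ttr in the offspring, beside 78.9% of all genes entered, and a count this small is not read against that share. Over 17 other settings the call was lost in 4 for Ppfia2, 7 for Vstm2a and for Gda, 8 for Nol4 and for Scn3a, and 13 for Mctp1. Ppfia2 had a slope of -0.05 ± 0.01 (limma, adjusted p = 0.0133), with 9393 and 8186 counts in sedentary fathers 1 and 2 and 7116 to 7665 in the other 6. In the offspring Ppfia2 was at 6548 to 9017 counts in the low set and 7139 to 8340 in the high set. Without sedentary fathers 1 and 2 together 0 genes had a called negative slope in limma, with 973 genes of either sign at an unadjusted p under 0.05.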

How the data were processed

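RNA from whole hippocampi was sequenced in 23 libraries; per the labels' protocols, 500 ng of RNA was enriched for mRNA and made into strand-specific libraries. Per the submitters' processing notes, the mouse build was GRCm38 and the tools were DESeq2 1.10, RSEM 1.2.28 and STAR 2.5.2a, with no step given for each. The authors deposited normalized counts, a signal that the values show to be whole reads over a single size factor for each library, in 1 table per generation. The authors' deposited comparison tables give log2 fold changes and p-values. Per the file titles, the authors had removed an unnamed outlier.

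Members, lists and rules were chosen with earlier results of these data known. Genes had to reach 10 normalized counts in 5 of 15 offspring libraries, or in 4 of 8 fathers. Differences and tests used log2(normalized count + 1), which understates changes of low genes. Offspring sets were described without a test. Fathers were fitted with limma 3.58.1 (empirical Bayes with an intensity trend, Benjamini-Hochberg over all genes, threshold 0.05); edgeR 4.0.16 and DESeq2 1.42.0 on recovered whole reads were alternatives. Dividing by the value of 1 read gave numbers within 0.1 of a whole one for every value above 0. The fathers' fit was tested on simulated data. Genes were named as the markers, the 15 largest and 10 most negative differences, the 10 closest to Ttr and the overlapping ones of the 20 most variable. Also named were the 10 smallest p-values per direction in the fathers. All these rankings took only genes with a mean of at least 50 counts. Up to 4 genes per list were named too, with choroid plexus lists in full. Coordinates are from GENCODE M21, in which 51719 of 51912 identifiers were found. Libraries of the same group differed beyond sampling noise in every pair.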

Additional observations from a re-analysis of the deposited data

Results flagged for a closer look

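Within sets of 4 to 10 libraries, a value was looked at again when its gap to the nearest other exceeded Dixon's 95% critical share of the range. Of 84 groups of values, 8 held such a library. The high and low sets were formed by ranking on Ttr and many of the measures move together, so this count has no chance rate to be read against. Replicate 7 of the offspring of sedentary fathers stood above the other 4 low libraries in Ttr (32839 counts), Folr1 (101.6) and Kl (1708). It did so also in the mean log2 level of choroid plexus ion and water transport (9.76) and of receptors and membrane enzymes (8.18). Without it 253 genes followed Ttr upward in place of 237.

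In the high set, replicate 2 of the offspring of exercised fathers, the one with the least Ttr, stood apart in the mean log2 level of choroid plexus transcription factors (8.81). In the same set, replicate 5 of the offspring of exercised fathers stood apart in the mean log2 level of thalamus and habenula genes (7.02). Among the 8 offspring of sedentary fathers, replicate 6 stood apart in the mean log2 level of erythrocyte genes (10.4).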

How the results depend on the processing

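The number of genes following Ttr upward in the offspring (237) was 212 with a pseudocount of 5, 149 with a filter at 50, 282 with no filter, 239 with TMM scaling, 243 and 248 with libraries ranked by Folr1 or Kl, and 280 for the 4 highest against the 4 lowest. It was 8 for the 7 highest against the 7 lowest, where the low set then takes in a library at 128793 Ttr counts, and the choroid plexus median fell to 1.68. Leaving out 1 library gave 234 to 265, of which at least 229 were shared with the 237. The downward count (2) was 0 with a pseudocount of 5, the filter at 50 or 7 against 7, 1 ranked by Kl, 21 with no filter, 16 for 4 against 4, and 2 to 17 without 1 library.

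In the fathers the positive count (221) was 433 with DESeq2, 349 with array weights, 219 with edgeR and 52 to 275 without 1 library. The negative count (6) was 80 with DESeq2, 13 with array weights, 22 without the covariate, 14 with no filter, 3 on Folr1 and 1 to 41 without 1 library. The offspring upward genes called (117) were 42 to 123 without 1 library. Without sedentary fathers 1 and 2 together the counts were 49, 0 and 45, and the slopes of Ppfia2, Nol4 and Scn3a turned to 0.0030, 0.0096 and 0.0098. The cause was not tested.

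By paternal group, Kl in place of Ttr gave -0.0029 in the offspring, and leaving out 1 library gave -0.63 to 0.82 for Ttr there and 0.89 to 3.46 in the fathers, none past the threshold. No paired analysis was possible because the labels give no numbers that the groups share. Of the single-gene differences in the offspring, 502 values under an alternative moved by less than 1 SD and 20 by more. Of the single-gene slopes in the fathers, 455 values kept direction and call, 50 lost and 18 gained the call. Depth limits genes near 10 counts.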

Other observations

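Besides TAATCC, 3 other letter patterns were read in the same RefSeq promoters, on both strands, after the values had been seen. The E-box letters CAGGTG were in 66 of 169 upward genes with an entry (39.1%), against 2601 of 12036 other genes (21.6%). TAATTA was in 6.51% and 3.47%, and GTAAACA in 3.55% and 3.18%. These are descriptions of letters in a window, with no test.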
